A study of Mus musculus with 14 samples.

Results

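The Zfp genes of the mouse are named for zinc finger proteins, and 157 of them were followed here in microglia, the resident macrophages of the brain. A gene was taken where its symbol was Zfp and a number alone, leaving out Zfp36, which encodes an RNA-binding protein of another kind of zinc finger, and where its mean over the 14 libraries was at least 7 normalized counts. Of 14104 symbols in the deposited table, 8819 reached that mean, and so did 157 of 305 Zfp symbols. The members were thus chosen by that measured mean, taken over both groups together, and it is given as a description. The tested libraries came from germ-free (GF) C57BL/6 mice, raised without microorganisms, and those they were set against from specific-pathogen-free (SPF) C57BL/6 mice, which carry a microbial flora free of listed pathogens. There were 7 libraries in each group, from mice of 6 to 8 weeks with no treatment. The cells were purified by density gradient and then sorted for CD11b+ CD45lo, at 1000 cells per brain, and 3' end libraries were made from polyadenylated RNA. The labels do not say that each library was a separate animal, so p-values measure only the spread between these samples, and no sex, cage or batch is given.

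Most Zfp proteins carry repeats of the C2H2 zinc finger, in which a pair of cysteines and a pair of histidines hold a zinc ion and a short helix reads bases in the major groove of DNA. Many of them also carry a KRAB domain, which recruits Trim28 (KAP1) and through it the histone H3 lysine 9 methyltransferase Setdb1, and such proteins are best known for silencing transposable elements and for keeping imprints. Others lack KRAB and act as activators, as repressors, or on RNA and protein rather than DNA. Fewer cells of a type and less RNA per cell cannot be told apart in libraries of sorted cells in bulk.

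Depth differed between the groups. In read equivalents, the total divided by the value of 1 read, it ran between 675929 and 1184759 in GF and between 902447 and 1627294 in SPF. The shallowest library was GF 6, in which the summed erythroid markers also reached 1839 normalized counts, against a GF median of 45.0 and 28.2 to 61.3 in SPF. The summed 17 microglial markers ran between 98790 and 115757 normalized counts in GF and between 80996 and 99638 in SPF. Of the 17, 6 rose and 4 fell in GF, beside 3.63% and 3.02% of all genes tested. The summed endothelial and pericyte markers ran between 17.4 and 71.3 in GF and between 62.8 and 91.9 in SPF, with Cldn5, a defining gene, at 0 throughout. The oligodendrocyte markers summed to 209 to 278 in GF and 265 to 320 in SPF. Other lists overlapped more widely. Astrocyte markers summed to 156 to 265 in GF and 165 to 257 in SPF, and lymphocyte markers to 52.7 to 106 and 53.6 to 112. Neuron markers summed to 3.12 to 23.2 in GF and 9.46 to 30.6 in SPF, and monocyte and neutrophil markers to 0 to 9.89 and 0 to 11.5. The border macrophage markers summed to 0 to 21.8 in GF, with a median of 7.96, and to 2.83 to 40.2 in SPF, with a median of 20.8. Of 47 genes of the 8 lists of other cell types in the table, 10 reached the minimum mean and were tested. They held 1 gene of the border macrophage list and 0 of the monocyte and neutrophil list. Of the 10, 0 passed, beside 6.64% of all genes tested, and 10 are too few to tell these shares apart. The part of depth or of other cells in any result was not tested.

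The Zfp genes did not differ between GF and SPF microglia more often than other genes did. Of all 8819 genes tested, 6.64% passed in either direction. In that fit 3 Zfp genes rose in GF (1.91%) and 3 fell (1.91%) at an adjusted p under 0.05, whereas 3.63% of all genes tested rose and 3.02% fell. The risers were Zfp358, Zfp691 and Zfp628, and the fallers were Zfp445, Zfp719 and Zfp148. A further 151 members did not pass. Of all 157, 77 had a higher mean log2 value in GF and 80 a lower one (51.0%), against 51.5% of all genes tested that were lower. The median log2 difference, GF minus SPF, was -0.02 over the members and -0.02 over all genes tested. With quantile normalization, or with a minimum mean of 20, the members' median was positive, at 0.08 and 0.07, so the median has no stable sign.

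The spread of the differences was also close to that of the other genes. Most members lay near 0, since 119 of 157 differed by less than 0.5 on the log2 scale and 10 by more than 1. The interquartile range of the members ran between -0.37 and 0.26, and that of all genes tested between -0.33 and 0.25. The most negative difference was that of Zfp719 (-2.11) and the most positive that of Zfp58 (1.03, adjusted p = 0.333), one of the lowest members by mean. At an unadjusted p under 0.05, 8 members were higher and 11 lower, against 10.7% of all genes tested that were higher and 11.1% that were lower. In no member did the 7 GF libraries lie all above or all below the 7 SPF libraries, which 1.25% and 0.873% of all genes tested did.

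**Figure D1:**
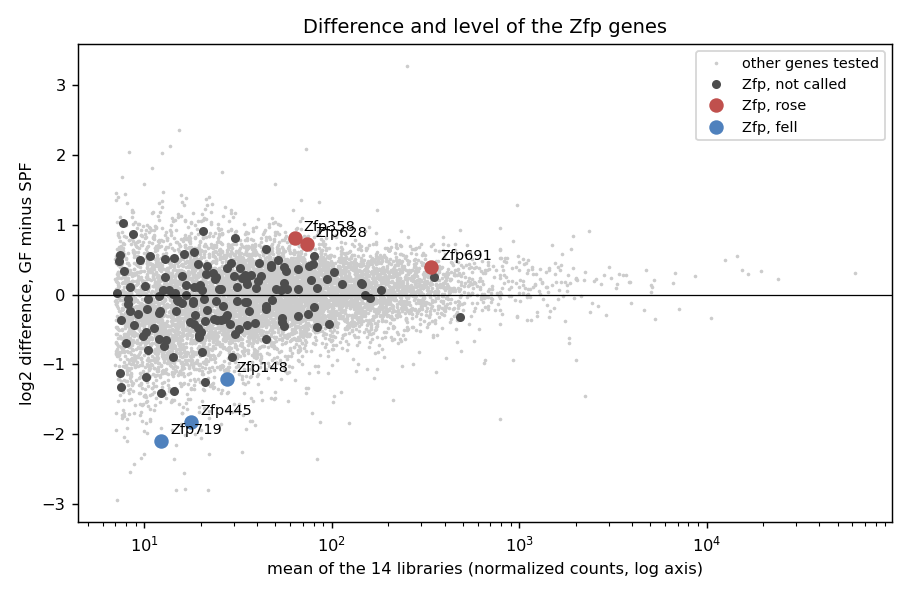
Log2 difference, GF minus SPF, of each gene tested (vertical axis) against its mean over the 14 libraries in normalized counts (horizontal axis, log scale). Grey dots are the other genes tested, black points the Zfp genes that did not pass, and coloured points the 3 that rose (red) and the 3 that fell (blue). The Zfp genes lie within the cloud of other genes around 0, the 3 risers at means above 50 and the 3 fallers at means under 50.

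The sequences before the start sites of 4 of these 6 genes are shown, those with a single start in the RefSeq promoter table of GRCm38.p6. They are given because the risers and fallers differed in the base composition of their transcripts, as described further on. Each window runs from 250 bases before the start to 50 after it, 5' to 3' on the gene's strand, and capitals mark the GC box GGGCGG, searched on both strands as GGGCGG and CCGCCC. Zfp358 lies at chr8:3492888-3493187 on the plus strand, Zfp628 at chr7:4914967-4915266 on the plus strand, Zfp445 at chr9:122865957-122866256 on the minus strand and Zfp719 at chr7:43579336-43579635 on the plus strand.
Zfp358: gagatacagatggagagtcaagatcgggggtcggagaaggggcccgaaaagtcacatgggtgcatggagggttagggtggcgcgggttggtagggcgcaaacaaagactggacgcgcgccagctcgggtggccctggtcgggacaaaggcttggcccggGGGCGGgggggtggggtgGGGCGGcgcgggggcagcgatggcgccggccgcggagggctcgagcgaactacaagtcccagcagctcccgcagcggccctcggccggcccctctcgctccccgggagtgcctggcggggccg
Zfp628: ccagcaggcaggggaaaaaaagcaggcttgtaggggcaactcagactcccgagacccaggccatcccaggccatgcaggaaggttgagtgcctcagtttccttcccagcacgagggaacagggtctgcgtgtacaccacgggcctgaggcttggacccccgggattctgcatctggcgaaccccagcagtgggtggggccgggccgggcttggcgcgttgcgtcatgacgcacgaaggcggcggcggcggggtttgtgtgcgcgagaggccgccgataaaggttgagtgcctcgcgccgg
Zfp445: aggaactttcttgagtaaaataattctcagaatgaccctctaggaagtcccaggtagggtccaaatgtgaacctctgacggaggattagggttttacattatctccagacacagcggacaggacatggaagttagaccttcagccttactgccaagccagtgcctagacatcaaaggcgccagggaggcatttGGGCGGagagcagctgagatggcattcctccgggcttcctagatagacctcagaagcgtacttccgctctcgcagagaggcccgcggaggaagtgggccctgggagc
Zfp719: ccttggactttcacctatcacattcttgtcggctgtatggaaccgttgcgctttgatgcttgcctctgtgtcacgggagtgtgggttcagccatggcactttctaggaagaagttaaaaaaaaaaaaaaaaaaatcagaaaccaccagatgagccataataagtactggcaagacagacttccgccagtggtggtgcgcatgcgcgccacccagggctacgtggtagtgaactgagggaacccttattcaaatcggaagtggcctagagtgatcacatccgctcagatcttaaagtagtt
The windows of the 2 risers held 31 (Zfp358) and 24 (Zfp628) CG dinucleotides, and those of the 2 fallers 10 (Zfp445) and 11 (Zfp719). The genes not shown had 2 starts each, with 21 and 16 in Zfp691, a riser, and 32 and 44 in Zfp148, a faller. Over all 6 genes the number of CG dinucleotides thus did not set risers apart from fallers. In the windows shown, the GC box occurred in Zfp358 at 2 places and in Zfp445 at 1, and these letters did not occur in Zfp628 or Zfp719. The box is not given here for Zfp691 and Zfp148. Over the 162 promoters of 128 members in the table, 51.9% held the GC box and the median number of CG dinucleotides was 18, against 35.7% and 7 over all 32851 promoters. Those belong to 27025 genes, whether tested here or not, and the other genes tested were not taken alone.

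Zfp358 and Zfp691 were the clearest of the 3 risers by library. Zfp358 ran between 52.5 and 128 normalized counts in GF, with a median of 69.4, and between 32.5 and 55.7 in SPF, with a median of 46.7. In GF, 6 of 7 libraries lay above the highest SPF library, and the lowest GF library fell within the SPF range. The means were 82.1 ± 29.3 in GF and 44.9 ± 9.0 in SPF (SD, n = 7 each), a 1.83-fold higher level, and the log2 difference was 0.81 ± 0.21 (SE, adjusted p = 0.0223). The 2 highest values were those of GF 3 and GF 6, and without either of them, or without SPF 5 or SPF 7, the adjusted p lay between 0.0505 and 0.0560.

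Zfp691 ran between 321 and 443 normalized counts in GF, with a median of 384, and between 253 and 324 in SPF, with a median of 294. Here too 6 of 7 GF libraries lay above the highest SPF library. The means were 387 ± 43.9 in GF and 293 ± 30.2 in SPF (SD, n = 7 each), 1.32-fold higher, and the difference on the log2 scale was 0.40 ± 0.11 (SE, adjusted p = 0.0226). It was the member with the smallest relative change among the 6, and its call was lost without SPF 6 (adjusted p = 0.0529).

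Zfp628 ran between 51.5 and 142 normalized counts in GF, with a median of 86.4, and between 39.6 and 95.3 in SPF, with a median of 49.3. The groups overlapped: 2 of 7 GF libraries lay above the highest SPF library, SPF 4, which stood apart from the next SPF library at 58.1. The means were 91.7 ± 27.4 in GF and 54.9 ± 18.7 in SPF (SD, n = 7 each), 1.67-fold higher, and the difference on the log2 scale was 0.73 ± 0.21 (SE, adjusted p = 0.0386). Its call was lost without any one of 11 libraries, namely GF 1, 2, 3, 5 and 6 and SPF 1, 2, 3, 5, 6 and 7, at adjusted p between 0.0530 and 0.0848.

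The 3 fallers had lower values than the risers, and 2 of them had zeros in GF. Zfp445 encodes a KRAB zinc finger protein that, with Zfp57, protects genomic imprints after fertilization. Its value was 19.8, 5.9, 10.96, 15.1, 1.0, 0 and 9.5 normalized counts in GF 1 to GF 7, and 39.8, 20.1, 32.3, 23.4, 20.3, 12.1 and 39.6 in SPF 1 to SPF 7. In GF, 5 of 7 libraries lay below the lowest SPF library, SPF 6. The log2 difference was -1.83 ± 0.51 (SE, adjusted p = 0.0287), and the call was lost without GF 5, SPF 1, SPF 3 or SPF 7 (adjusted p 0.0527 to 0.0690).

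Zfp719 was listed at 0 in GF 1, GF 2 and GF 6, and at 9.0, 7.1, 14.9 and 2.1 normalized counts in GF 3, 4, 5 and 7. In SPF 1 to SPF 7 it was at 5.3, 50.9, 10.2, 33.4, 10.1, 12.98 and 16.3. Most of the SPF mean came from SPF 2 and SPF 4, and 4 of 7 GF libraries lay below the lowest SPF library. The log2 difference was -2.11 ± 0.62 (SE, adjusted p = 0.0387). The call was lost without GF 1, 2, 6 or 7 or SPF 2, 4, 5, 6 or 7, at adjusted p between 0.0513 and 0.0976, and without GF 1, GF 6 and SPF 2 together the difference was -1.25 (adjusted p = 0.259).

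Zfp148 (ZBP-89) binds GC-rich promoter elements and can activate or repress. It ran between 5.97 and 43.4 normalized counts in GF, with a median of 17.7, and between 20.3 and 67.4 in SPF, with a median of 33.1. The highest GF value was that of GF 6, the next was 19.2, and the other 6 GF libraries lay below the lowest SPF library. The means were 17.3 ± 12.8 in GF and 37.8 ± 16.4 in SPF (SD, n = 7 each), and the difference on the log2 scale was -1.21 ± 0.37 (SE, adjusted p = 0.0452). Leaving out GF 1, 2, 3, 5 or 7 or SPF 2, 3, 4, 5, 6 or 7 gave adjusted p between 0.0506 and 0.107.

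**Figure D2:**
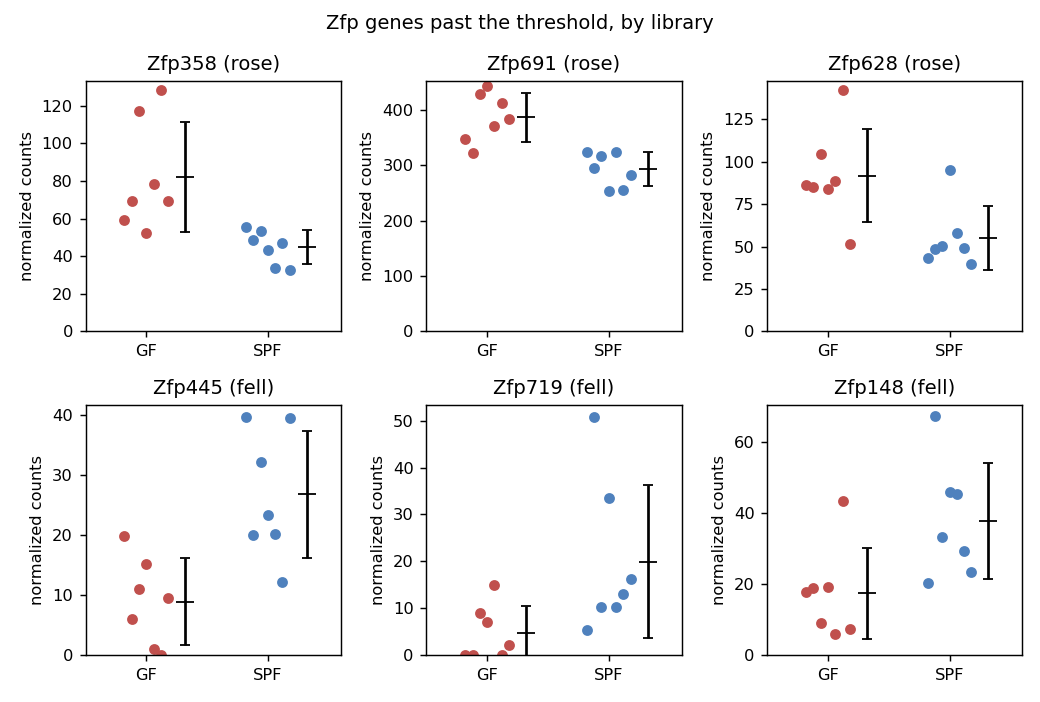
Normalized counts (vertical axes, from 0) of the 3 Zfp genes that rose (top) and the 3 that fell (bottom) in GF (red) and SPF (blue), 1 point per library, with the mean and SD as a bar to the right of each group, the lower end not drawn below 0. The ranges of GF and SPF overlap in each of the 6 genes, and GF 6 carries the highest GF value of Zfp358, Zfp628 and Zfp148.

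The count of 6 depended on single libraries. Without SPF 6 or without SPF 7 it was 2, and it was 3 without GF 1, GF 3, GF 5, SPF 2 or SPF 5. With log2 depth as a covariate, 1 of the 6 still passed, Zfp148 at a log2 difference of -1.72 (adjusted p = 0.0102), while Zfp358 (0.58), Zfp691 (0.38), Zfp628 (0.59), Zfp445 (-1.29) and Zfp719 (-2.03) had adjusted p between 0.0711 and 0.178. In no setting tried did any of the 6 change direction.

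Of all 28 Zfp genes with a known role, 0 rose and 2 fell, beside 3.63% and 3.02% of all genes tested. Among the regulators of transcription with a known role, 12 were members, of which 1 fell, Zfp148, and none rose. Zfp143, an activator of small nuclear RNA and many other promoters, ran between 0 and 13.9 normalized counts in GF, with a median of 5.21, and between 9.46 and 18.2 in SPF, with a median of 14.1. Its log2 difference was -1.19 (95% interval -2.16 to -0.21), which did not pass in limma (adjusted p = 0.137). Zfp703, a transcriptional corepressor without a classical C2H2 finger by the pattern used, averaged 384 ± 41.2 normalized counts in GF and 321 ± 35.0 in SPF (SD, n = 7 each; log2 difference 0.26, adjusted p = 0.150). Zfp217, a component of corepressor complexes, averaged 83.3 ± 24.9 in GF and 110 ± 21.6 in SPF (SD, n = 7 each; -0.43, adjusted p = 0.183). Both had intervals that excluded 0 without passing the adjustment over all genes.

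The other regulators all had 95% intervals that crossed 0. Zfp238 (RP58, Zbtb18), a repressor needed in the development of cortical neurons, had a log2 difference of -0.00, with a 95% interval of -0.27 to 0.26. Zfp281, which binds GC-rich sites and is known from embryonic stem cells, had -0.48, with an interval of -1.61 to 0.65. Zfp410, an activator of Chd4, had -0.35 (-0.99 to 0.30), and Zfp191 (Zfp24), needed for myelination of the central nervous system, had -0.37 (-1.40 to 0.66). Zfp161 (Zbtb14), Zfp384, Zfp335 and Zfp219 had differences of -0.69, -0.31, 0.13 and 0.27, at adjusted p of 0.406, 0.416, 0.839 and 0.578. The lower ends for Zfp281 and Zfp191 lie below -1, and the upper ends of all 4 intervals given lie under 1.

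Of the KRAB repressors with known targets, 3 were members, and 1 of them, Zfp445, fell, beside 3.02% of all genes tested. Zfp809, which silences retroviral DNA at the primer binding site, averaged 14.1 ± 5.98 normalized counts in GF and 11.5 ± 4.98 in SPF (SD, n = 7 each; log2 difference 0.25, adjusted p = 0.757). Zfp90 averaged 188 ± 30.1 in GF and 179 ± 23.1 in SPF (SD, n = 7 each; 0.07, adjusted p = 0.809). Zfp90 was the more precisely measured of the pair, with an interval of -0.20 to 0.33 against -0.54 to 1.05 for Zfp809.

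The 13 members listed for other roles all missed the threshold, with log2 differences between -0.57 and 0.45 and adjusted p between 0.253 and 0.916. Over all genes tested, 6.64% passed in either direction. Among ligases, Zfp91, an E3 ligase of the noncanonical NF-kB pathway, had a difference of 0.21 (-0.28 to 0.70), Zfp451, a SUMO ligase, 0.44 (-0.26 to 1.14) and Zfp598, which marks collided ribosomes, -0.40 (-0.88 to 0.08). Of proteins that act on RNA or ribosomes, Zfp622, a factor of large subunit maturation, had 0.07 (-0.35 to 0.50), Zfp106 -0.45 (-0.92 to 0.02), Zfp326 of the DBIRD complex -0.16 (-0.81 to 0.49) and Zfp346, which binds double-stranded RNA, -0.09 (-0.82 to 0.64). Zfp207 (BuGZ), which acts with Bub3 at the spindle, had 0.15 (-0.22 to 0.52). Zfp746 (PARIS), a substrate of Parkin, had 0.20 (-0.38 to 0.78) and Zfp110, which interacts with the p75 neurotrophin receptor, -0.57 (-1.24 to 0.11). Zfp687, Zfp830 and Zfp827 had 0.45, 0.34 and -0.26.

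**Figure D3:**
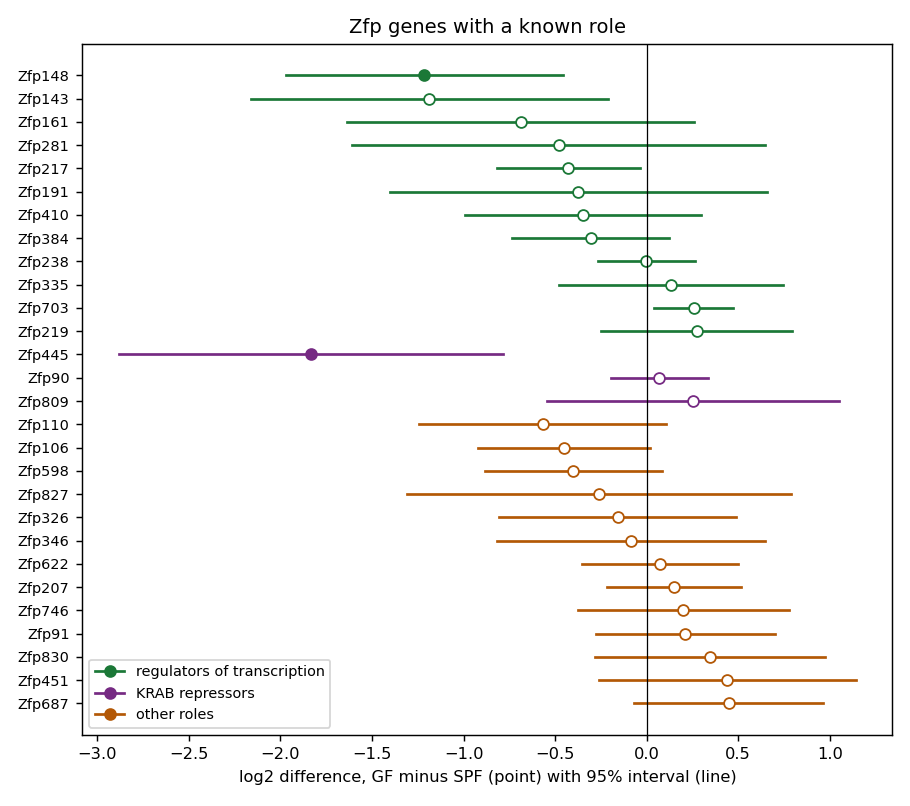
Log2 difference, GF minus SPF (point), with its 95% interval (line) for the 28 Zfp genes with a known role, grouped as regulators of transcription (green), KRAB repressors (purple) and other roles (orange). Filled points mark the 2 genes that passed after adjustment over all genes, Zfp148 and Zfp445, and most other intervals cross 0.

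Deposited values are not divided by transcript length, and how closely they follow transcripts per cell in these 3' end libraries was not tested. Here they rank how many reads a gene gave. By that measure 6 members, Zfp710, Zfp703, Zfp691, Zfp90, Zfp740 and Zfp238, held 25.8% of the summed mean of all 157, and 67 members had means under 20 normalized counts. The median of the members' means was 23.8, against 41.7 for the other genes tested. Zfp710, the highest, ran between 342 and 495 normalized counts in GF, with a median of 425, and between 459 and 643 in SPF, with a median of 513. In 5 of 7 GF libraries it was below the lowest SPF library, and the log2 difference was -0.33 ± 0.10 (SE), at an adjusted p of 0.0582 just outside the threshold. It passed in 6 of 29 other settings, among them the one without GF 7 (0.0436) and the one without SPF 7 (0.04996). Zfp740 averaged 157 ± 22.7 in GF and 162 ± 20.8 in SPF (SD, n = 7 each), with an interval of -0.31 to 0.23 for the log2 difference. Together the members held 0.564% ± 0.0378 of the summed values of all symbols in GF and 0.586% ± 0.0271 in SPF (SD, n = 7 each), and the ranges overlapped, at 0.525% to 0.629% in GF and 0.562% to 0.642% in SPF.

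Low values limited what could be seen. The median coefficient of variation between libraries of a group was 61.3% in GF and 51.0% in SPF for the 67 members with means of 7 to 20, 43.2% in GF and 36.2% in SPF for the 55 with means of 20 to 50, and 25.6% in GF and 21.7% in SPF for the 35 with means of at least 50. The sign of the difference also went with the mean, in the family and outside it. The median log2 difference was -0.12 over members with means of 7 to 20, -0.06 with means of 20 to 50 and 0.15 with means of at least 50, against -0.21, -0.06 and 0.06 for the other genes tested in the same ranges. All 3 risers belonged to the highest range, and the 3 fallers to the lower ones. Calls among the other genes tested also went with the mean. At means of 7 to 20, 0.223% of them rose and 1.65% fell. The shares were 0.878% and 2.90% at means of 20 to 50, and 7.60% and 3.95% at means of at least 50.

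Transcript composition moved with the result in the same way. Of the 74 members with a GC content under 50%, 0 rose and 3 fell, with a median log2 difference of -0.19, and of the 83 with at least 50%, 3 rose and 0 fell, with a median of 0.09. Other genes tested showed 41 rises and 183 falls of 3782 under 50% (median -0.17), and 275 rises and 77 falls of 4853 at or above it (median 0.08). The 3 risers had transcripts of 1721 to 3523 bases with a GC content of 55.3% to 63.5%. The 3 fallers had 4494 to 9830 bases and 39.9% to 43.3%. Once the trend of each library with length and GC content had been removed, the 6 genes had adjusted p between 0.0755 (Zfp445) and 0.250 (Zfp691), with their directions unchanged, and none passed. The differences there were 0.59 for Zfp358, 0.23 for Zfp691, 0.52 for Zfp628, -1.57 for Zfp445, -1.84 for Zfp719 and -0.86 for Zfp148, so that of Zfp691 shrank most in proportion and those of Zfp445 and Zfp719 least. In that fit 2 other members passed, Zfp710 at -0.40 (adjusted p = 0.0276) and Zfp706 at 0.57 (adjusted p = 0.0281), which is named only because it did. Beyond these values, the part of composition and length in the calls was not tested.

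**Figure D4:**
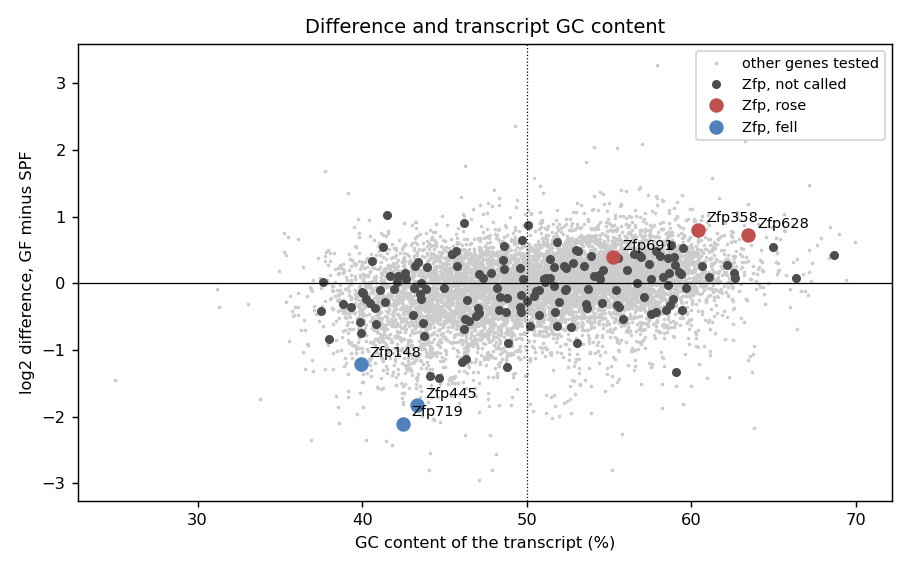
Log2 difference, GF minus SPF (vertical axis), against the GC content of the transcript in percent (horizontal axis), for the Zfp genes (black, red and blue points) and the other genes tested (grey dots), with a dotted line at 50%. The 3 risers lie above 50% and the 3 fallers under it, and the grey cloud tilts the same way.

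Calls by protein class were too few to set the classes apart, and no test between them was run. A KRAB A box by the looser of the patterns tried was found in 38 members, of which 0 rose and 2 fell, Zfp445 and Zfp719, beside 3.63% and 3.02% of all genes tested, with a median log2 difference of -0.10. In the 118 members with a protein but without that match, 3 rose and 1 fell, and the median was 0.01. The stricter pattern matched 21 members, with 0 rises, 0 falls and a median of 0.07, so the sign of the KRAB median hangs on the pattern. Members had a median of 9 C2H2 fingers, with 37 in the longest array, that of Zfp142. By number of fingers, 0 rose and 1 fell of 39 members with 1 to 5, 2 rose and 0 fell of 57 with 6 to 10, and 1 rose and 2 fell of 56 with 11 or more. The patterns found no finger in 4 members, Zfp259 (Zpr1), Zfp330, Zfp703 and Zfp839.

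The share of Zfp genes at 0 was higher in GF. Among the 157 members, 2.37% ± 1.97 were at 0 in a GF library and 0.910% ± 0.722 in an SPF library (SD, n = 7 each), with ranges of 0.637% to 6.37% in GF and 0% to 1.91% in SPF that overlap. The highest share was that of GF 2, in which 10 of 157 were at 0, and without it the difference of 1.46 percentage points was 0.789. Over the other genes tested the shares were 1.36% ± 0.562 in GF and 0.521% ± 0.251 in SPF (SD, n = 7 each). In all, 135 members were above 0 in every library. Of the 22 others, 15 were at 0 in more GF than SPF libraries, 3 in more SPF than GF libraries and 4 in equal numbers. GF libraries were shallower, and the share expected if each were thinned to the depth of the shallowest was 3.44% ± 1.90 in GF and 1.71% ± 0.475 in SPF (SD, n = 7 each). For the other genes tested it was 1.86% ± 0.382 in GF and 0.949% ± 0.263 in SPF (SD, n = 7 each). Their ranges, 1.58% to 2.57% in GF and 0.579% to 1.31% in SPF, did not overlap.

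The 148 Zfp symbols under the minimum, none at 0 in every library, were at 0 more often. Between 44.6% and 58.8% of them were at 0 in a GF library, with a mean of 50.2% ± 5.29, and between 33.1% and 37.8% in an SPF library, with a mean of 36.5% ± 1.79 (SD, n = 7 each). The ranges do not overlap. Thinned to the shallowest library, the expected shares ran between 51.4% and 59.2% in GF and between 43.1% and 46.5% in SPF, and did not overlap. Of the 4991 other genes under the minimum with a value above 0 in some library, 64.2% ± 3.57 were at 0 in GF and 57.02% ± 4.04 in SPF (SD, n = 7 each), with ranges of 58.0% to 68.8% in GF and 50.1% to 61.1% in SPF. Thinned in the same way, their expected shares were also higher in GF, at 68.8% ± 2.53 against 63.4% ± 2.78 in SPF (SD, n = 7 each). Those ranges, 64.3% to 72.4% in GF and 58.3% to 66.0% in SPF, overlapped. The sum of the 148 ran between 289 and 445 normalized counts in GF, with a median of 373, and between 413 and 512 in SPF, with a median of 460. Their mean was lower in GF for 90 of 148 (60.8%), against 56.1% of those other genes. In a fit without a minimum, 0 of the 148 rose and 1 fell, Zfp157, while 4 rose and 33 fell of the 4991 others.

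**Figure D5:**
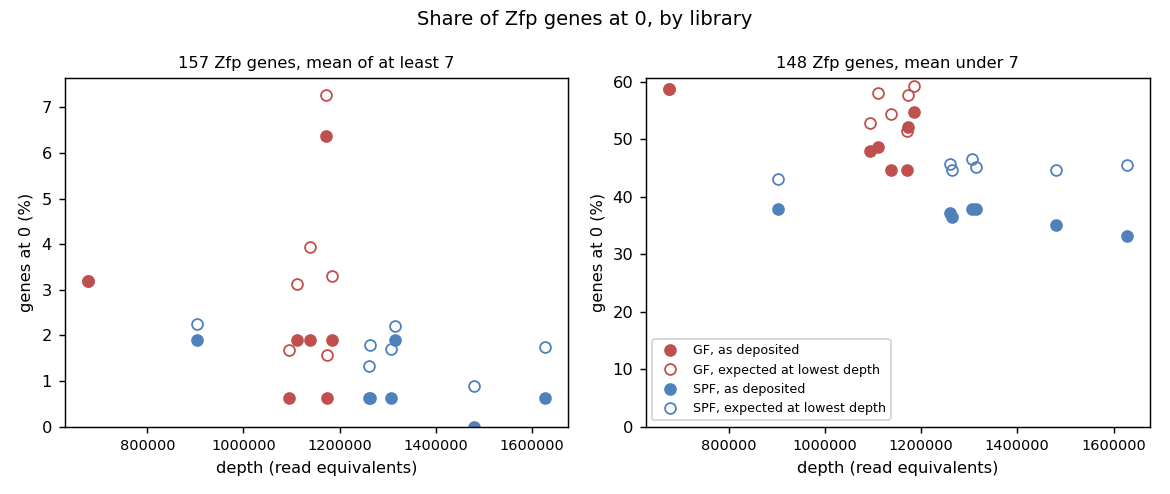
Share of Zfp genes at 0 in percent (vertical axes) against depth in read equivalents (horizontal axes), for the 157 genes with a mean of at least 7 (left) and the 148 under it (right), 1 filled point per library for GF (red) and SPF (blue). Open points give the share expected after thinning to the shallowest library, and on the right the GF points lie above the SPF points in both forms.

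Members next to the minimum had values like those of the symbols under it. Just inside it were Zfp28 with a mean of 7.38 (4.87 in GF, 9.89 in SPF), Zfp14 with 7.29 (9.20 in GF, 5.39 in SPF) and Zfp68 with 7.17 (7.07 in GF, 7.27 in SPF). Just outside were Zfp157 with 6.96 (2.91 in GF, 11.004 in SPF), Zfp329 with 6.96 (4.33 in GF, 9.58 in SPF) and Zfp644, known from the G9a complex, with 6.93 (6.03 in GF, 7.83 in SPF).

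The list of corepressor and heterochromatin genes is wider than the machinery that KRAB proteins recruit. Of its 27 genes tested, 0 rose and 0 fell, beside 6.64% of all genes tested that passed. By sign, 19 were lower in GF and 8 higher (70.4% lower, against 51.5% of all genes tested), with a median log2 difference of -0.17. At an unadjusted p under 0.05, 2 were lower and 0 higher, against 11.1% and 10.7% of all genes tested. Trim28, the KRAB corepressor, averaged 286 ± 25.6 normalized counts in GF and 254 ± 59.4 in SPF (SD, n = 7 each; log2 difference 0.20, adjusted p = 0.395). Setdb1 averaged 37.0 ± 10.4 in GF and 51.3 ± 20.02 in SPF (SD, n = 7 each; -0.41, adjusted p = 0.375).

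Over 5 related lists of C2H2 genes, 1 gene rose and 5 fell of 82 tested (1.22% and 6.10%), beside 3.63% of all genes tested that rose and 3.02% that fell. Of 28 Zbtb genes, which join fingers to a BTB domain, 1 rose and 2 fell. Zbtb7a (LRF), the riser, averaged 779 ± 103 normalized counts in GF and 581 ± 76.7 in SPF (SD, n = 7 each; 0.42, adjusted p = 0.0115), and the fallers were Zbtb26 (-1.96, adjusted p = 0.0192) and Zbtb11 (-1.62, adjusted p = 0.0393). Of 10 Zkscan and Zscan genes 1 fell, Zkscan3, known as a repressor of autophagy genes, at 20.6 ± 3.22 in GF and 42.9 ± 6.31 in SPF (SD, n = 7 each; -1.01, adjusted p = 0.00713). Of 9 Zfp symbols with a letter after the number 1 fell, Zfp280c (-2.10, adjusted p = 0.0173). Of 24 other C2H2 factors 1 fell, Adnp, a chromatin protein, at 26.4 ± 10.3 in GF and 48.8 ± 4.31 in SPF (SD, n = 7 each; -0.96, adjusted p = 0.0293). In Zkscan3, Zbtb26 and Adnp all 7 GF libraries lay below the lowest SPF library, which 0.873% of all genes tested did. Of 11 Klf and Sp genes 0 rose and 0 fell. At an unadjusted p under 0.05, 3 of them were lower and 0 higher, against 11.1% and 10.7% of all genes tested.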

How the data were processed

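The deposited table gives 1 value per RefSeq transcript and library, a signal normalized by the authors, with no value under 0 and here called normalized counts. The submitters' processing notes name TopHat and the build mm9. No counting tool, strand setting or scaling method is named there, and these are not given in the sources used. Between 84.5% and 86.7% of a library's positive values were whole multiples of 1 step (tolerance 0.01 of a read), so whole reads were not recovered, no count model was run, and depth is in read equivalents, with no interval from counts. The table held 18487 rows, of which 217 without a symbol were left out, and the row with the highest mean was kept per symbol. Of the members, 34 had several rows, and zinc finger paralogs may share reads, so their values are uncertain.

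Differences are GF minus SPF of log2(value + 1.44), a scale on which the change of low genes is understated. All 8819 genes with a mean of at least 7 were tested two-sided by limma (version 3.58.1, under R 4.3.3) with its trend option, with Benjamini-Hochberg adjustment over all of them and a threshold of 0.05. Adjusted p values come from this model unless another setting is named with them. The words "rose" and "fell" are kept for genes that passed in the fit given. Two-sided 95% intervals use the same fit. The procedure was checked on simulated data, drawn as whole reads with the SPF spread in both groups. That check therefore does not cover values that are not whole reads, or the wider spread in GF. The rule named every member past the threshold, the 6 with the highest means, the 28 of 39 listed role genes that were members, those next to the minimum, called genes of the comparison lists, and Trim28 and Setdb1. Zfp58, Zfp142, Zfp706 and the members without a finger were named after their values were seen. The members and all lists were chosen with earlier results of these data known.

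Length and GC content (157 members, 14025 genes) and protein classes (156 members, the longest coding sequence translated, in place of the RefSeq proteins planned) came from GENCODE M21, promoters from RefSeq, GRCm38.p6. A finger is C, 2 to 4 residues, C, 12 residues, H, 3 to 5 residues, H. The looser KRAB pattern was chosen after the data were seen. Replicate numbers did not pair the samples: the correlations of same-numbered samples ran between -0.06 and 0.05. In total, 29 alternative settings were run, 14 of them leaving out 1 library.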

Additional observations from a re-analysis of the deposited data

Results flagged for a closer look

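Over 80 groups of 7 libraries examined, 4 had a library far from the others, and chance alone flags about 1 in 20. Zfp148 stood at 43.4 normalized counts in GF 6, where the next GF library was at 19.2. Zfp161 stood at 15.8 in GF 5, where the next GF library was at 6.56. Zfp628 stood at 95.3 in SPF 4, where the next SPF library was at 58.1. The depth of GF 6 was 675929 read equivalents, and the next shallowest GF library had 1093813.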

How the results depend on the processing

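The 586 genes called in the whole table (320 rose, 266 fell) became 308 without a mean trend, 375 with length and GC trends removed and 320 without GF 1, GF 6 and SPF 2, and ranged between 404 and 620 when each library was left out. Upper-quartile scaling turned their split to 192 that rose and 414 that fell, and that of the members to 1 and 6. The 6 members called became 3 with a pseudocount 4 times smaller, 2 with no filter on low values, 0 without a mean trend (where limma gave 7 higher and 11 lower at an unadjusted p under 0.05), 1 with depth as a covariate, 2 with length and GC trends removed, and 2 without GF 1, GF 6 and SPF 2. Leaving out each library gave 2 to 8. The members' median difference became 0.075 with a minimum mean of 20, -0.10 with upper-quartile scaling and 0.082 with quantile normalization, and lay between -0.03 and 0.01 when each library was left out. The difference in the share at 0, 1.46 percentage points, became 7.40 with no minimum on the mean and lay between 0.789 and 1.74 when each library was left out. With no minimum the family's shares were 25.6% in GF and 18.2% in SPF. Over all 14104 symbols, those at 0 in every library included, the shares were 25.2% in GF and 21.9% in SPF. The cause of these shifts was not tested.

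Because the replicate numbers do not pair the samples (0 of 7 pairs correlated over 0.1, and 1 of 7 correlated best with its own number), the fit with a replicate block is given here only: it called 519 genes (281 rose, 238 fell) and 6 members (3 rose, 3 fell). The call of Zfp691 was kept in 22 of 29 settings, that of Zfp358 in 21 of 29, that of Zfp445 in 19 of 28, that of Zfp148 in 13 of 29, and those of Zfp628 and Zfp719 in 12 of 29 and 12 of 28.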
